A study of Mus musculus with 12 samples.

Results

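The lipid droplet coat and lipase genes are 10 genes picked by name for their known role: the perilipins *Plin2*, *Plin3* and *Plin5*, the droplet coat gene *Cideb*, the lipase inhibitor *G0s2*, the lipase co-activator *Abhd5*, the lipase genes *Pnpla2*, *Pnpla3* and *Lipe*, and the droplet enzyme gene *Hsd17b13*. They are 10 of 54232 genes in the table of liver RNA-seq counts, and all 10 were among the 17509 genes tested. They were chosen with earlier results of these data known, so their counts and median given below are description only. The data come from 12 male mice on a C57Bl/6J background, 6 per genotype with 1 library per mouse. All were 10 weeks old, ate chow and were fasted for 4 h. Both genotypes carried 2 floxed alleles of *Marchf6*, the gene of an ubiquitin ligase of the endoplasmic reticulum. The WT mice were *Marchf6*(fl/fl) AlbuminCre-, and the LKO mice were *Marchf6*(fl/fl) AlbuminCre+, with Cre recombinase driven by the albumin promoter in hepatocytes. Only the LKO mice carried Cre, so the effects of Cre and of the deletion cannot be told apart. The study calls the deletion hepatocyte-specific, and which liver cells carried it was not tested here.

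A lipid droplet is a core of triglyceride and sterol ester inside a single phospholipid layer that proteins coat. Perilipins and CIDE proteins shield or enlarge the droplet, whereas adipose triglyceride lipase (ATGL, encoded by *Pnpla2*) takes the first fatty acid off a triglyceride. ABHD5 switches ATGL on and G0S2 blocks it. PLIN2 without a droplet to sit on is degraded, and MARCHF6 is one of the ligases known to mark it, a step that RNA counts do not report.

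*Pnpla3* rose 4.17-fold in LKO livers and was the only member past the test. Its neighbours *Pnpla5* and *Parvb* on chromosome 15 rose too. *Pnpla2* and *Plin3* were each higher in LKO livers, 1.19-fold and 1.17-fold, and did not pass. *Plin2*, the member with the highest level per length, varied more between mice of 1 genotype than between the genotypes, and its LKO mean was raised by 1 liver.

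Total counts ranged from 14860414 to 22111926 per liver and are given below as CPM after TMM scaling, which sets the libraries level on the bulk of their genes. The whole-gene count of *Marchf6* did not separate the groups: it was 226 to 247 CPM in WT and 204 to 249 CPM in LKO livers, with a log2 fold change of −0.093 (SE 0.060, adjusted p = 0.585, edgeR's quasi-likelihood test). The conditional allele loses 1 exon and the counts cover the whole gene, so this count does not check the labels. The library numbers of all WT mice precede those of all LKO mice, so that library order and genotype cannot be told apart. The hepatocyte marker sum was 98286 to 116970 CPM in WT and 89338 to 98492 CPM in LKO livers, with 5 of 6 markers lower in LKO livers and none of the 6 past the test. All 7 of 7 Kupffer cell markers were higher in LKO livers, at a summed 99.7 to 129 CPM in WT and 125 to 215 CPM in LKO livers, and 5 of 6 LKO livers lay above every WT liver. None of these 7 passed the test and 6 had an unadjusted p under 0.05 in edgeR's test. All 4 of 4 B cell markers were higher, at a summed 0.647 to 1.21 CPM in WT and 1.26 to 2.19 CPM in LKO livers, again without one past the test. In this sum all 6 LKO livers lay above every WT liver, and 3 of the 4 markers had an unadjusted p under 0.05 in edgeR's test. These markers had only 1 to 13 reads per library. The stellate cell markers were higher in 7 of 7 genes, the endothelial markers in 5 of 6 and the cholangiocyte markers in 2 of 4, and none of these passed. In bulk liver, fewer cells of a type and less RNA per cell cannot be told apart, and the part of these shifts in the results below was not tested.

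Level per length, as RPKM (CPM divided by the exon length in kilobases), ordered the members in the same way in both genotypes: *Plin2*, *Hsd17b13*, *G0s2*, *Pnpla2*, *Plin5*, *Cideb*, *Plin3*, *Abhd5*, *Lipe* and *Pnpla3*. In WT livers *Plin2* stood at 164 ± 64.3 RPKM (SD, n = 6) and *Hsd17b13* at 154 ± 11.0 RPKM (SD, n = 6), and these neighbours in the order overlapped, with 3 of 6 livers holding more *Plin2*. *Pnpla2* at 38.1 ± 3.17 RPKM and *Plin5* at 36.4 ± 10.9 RPKM (SD, n = 6 each) overlapped too. *Plin5* overlapped with *Cideb*, at 22.3 ± 3.13 RPKM, and *Abhd5*, at 5.61 ± 1.16 RPKM, with *Lipe*, at 3.24 ± 0.725 RPKM (SD, n = 6 each). The ranges of the other neighbours in the WT order did not overlap: *G0s2* stood at 90.0 ± 28.9 RPKM, *Plin3* at 10.7 ± 0.678 RPKM and *Pnpla3* at 0.760 ± 0.576 RPKM (SD, n = 6 each). In LKO livers *Pnpla3* reached 3.19 ± 1.39 RPKM, within the range of *Lipe* at 3.35 ± 0.725 RPKM (SD, n = 6 each). *G0s2*, at 92.7 ± 56.0 RPKM in LKO livers (SD, n = 6), overlapped with both of its neighbours there. With the length of the longest transcript in place of all exons the order stayed the same, but the overlaps changed. *Plin3* and *Abhd5* then overlapped, and *Abhd5* and *Lipe* no longer did in WT livers. *Plin2*, at a mean of 304 RPKM, was then above *Hsd17b13*, at 194.5 RPKM, in 5 of 6 WT livers. In LKO livers these 2 genes no longer overlapped, so their near tie depends on the length used.

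**Figure D1:**
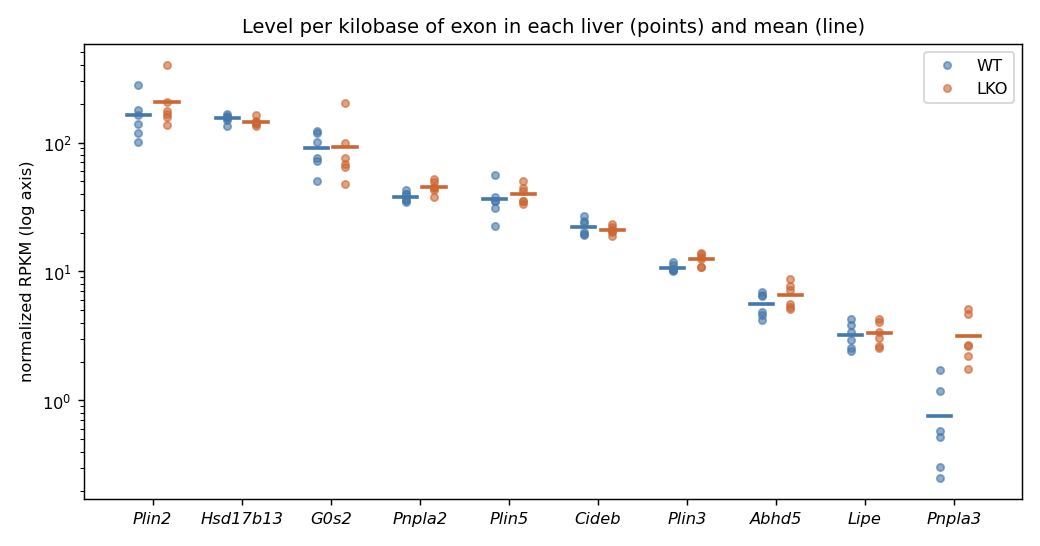
Level per kilobase of exon (normalized RPKM, log axis) of the 10 members in each of 6 WT and 6 LKO livers; points are livers and lines are group means. The order of the means was the same in both genotypes, and *Pnpla3* moved up from 0.760 to 3.19 RPKM, into the range of *Lipe*.

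Among the perilipins, which share a droplet-binding fold, *Plin2* made up 75.2 ± 6.52% of the summed RPKM in WT and 77.0 ± 5.58% in LKO livers (SD, n = 6 each). *Plin5*, the perilipin that ties droplets to mitochondria in oxidative tissues, held 17.5 ± 4.84% and 16.3 ± 4.46%. *Plin3*, a broadly expressed coat protein of young droplets, held 5.40 ± 1.76% and 5.07 ± 1.31%, and *Plin4* 1.88 ± 1.41% and 1.67 ± 0.559% (SD, n = 6 each). *Plin1*, the perilipin of fat cells, had at most 1 read in any liver. The makeup of the perilipin transcripts thus moved by less than the spread between livers. These shares rest on the length of all exons and would differ with another length. With the longest transcript, the WT mean of *Plin2* was 304 RPKM instead of 164. That of *Plin5* was 38.2 instead of 36.4 RPKM, so the share of *Plin2* would be larger and that of *Plin5* smaller.

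By edgeR's quasi-likelihood test 1 of the 10 members had an adjusted p under 0.05, as did 0.428% of all genes tested. At an unadjusted p under 0.05 there were 3 members, all higher in LKO livers, against 11.7% of all genes. Groups that did not overlap in log2 CPM were found for 1 member, against 1.30% of all genes. Relative to WT livers 8 members were higher and 2 lower, with a median log2 fold change of 0.18, beside a median of 0.00016 over all genes tested. Without LKO 1 the median of the members was 0.12. Exonic bases are shared with another gene by 4 members: *Cideb*, *Lipe* and *Abhd5* with a gene on the opposite strand and *Pnpla3* with a transcript on the same strand that had 0 reads.

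**Figure D2:**
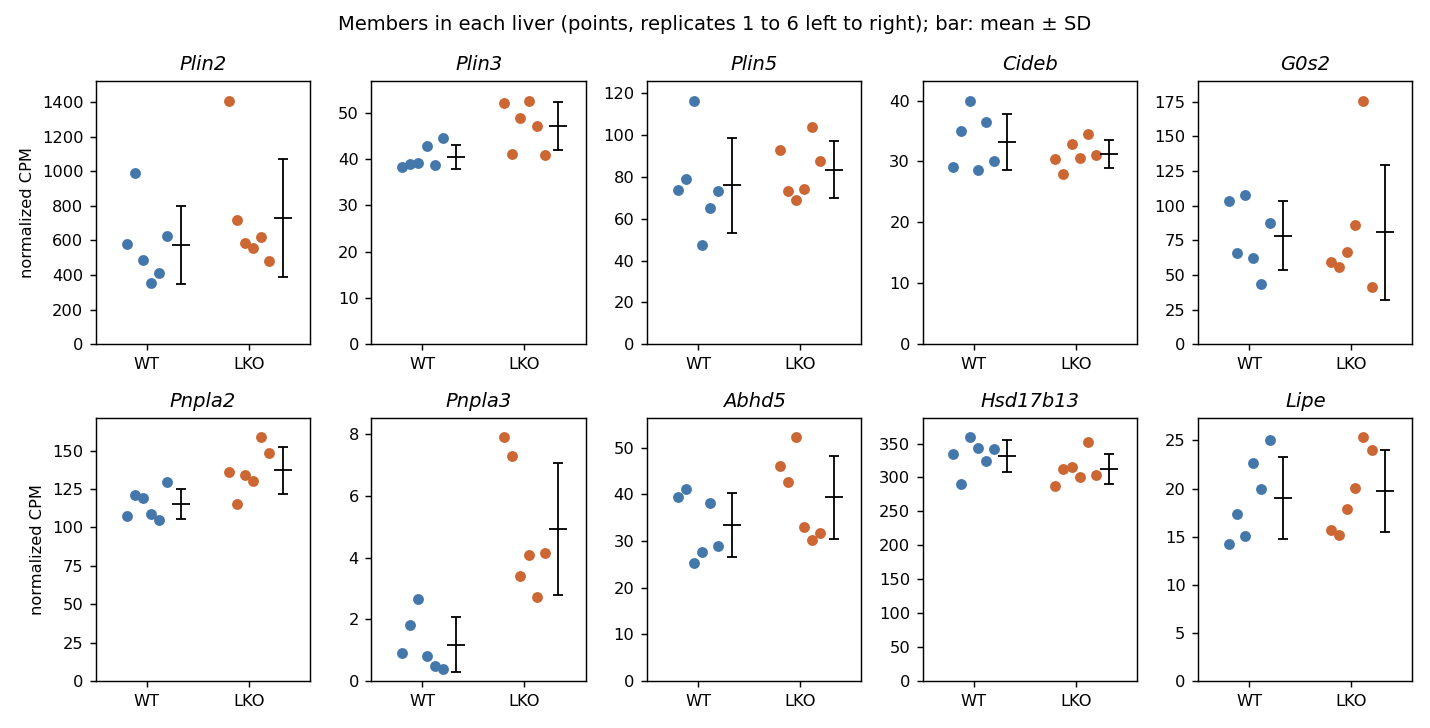
Normalized CPM of each member in every liver (points, replicates 1 to 6 from left to right) with the group mean ± SD (bar), 6 WT and 6 LKO livers. For *Pnpla3* the 6 LKO livers lie above all 6 WT livers; for *Plin2* and *G0s2* a single LKO liver stands far above the rest.

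*Plin2* (chromosome 4, 86648386 to 86670060, minus strand), the main perilipin of hepatocyte droplets, was counted at 578, 988, 490, 356, 413 and 624 CPM in WT replicates 1 to 6. In LKO replicates 1 to 6 it was counted at 1410, 720, 587, 556, 620 and 482 CPM. The groups overlapped, and WT 2 held more *Plin2* than 5 of the 6 LKO livers. LKO livers differed from WT livers by a log2 fold change of 0.34 (SE 0.27, 95% interval −0.24 to 0.92, adjusted p = 0.672, edgeR), so a rise as well as a small fall lay within the interval. Without LKO 1 it was 0.046 (adjusted p = 0.960, edgeR), and without WT 2 it was 0.56 (adjusted p = 0.393, edgeR).
*Plin3* (chromosome 17, 56277476 to 56292873, minus strand) was counted at 38.3, 39.0, 39.2, 42.9, 38.7 and 44.5 CPM in WT and at 52.1, 41.2, 48.9, 52.6, 47.1 and 40.8 CPM in LKO replicates 1 to 6. It was above the WT maximum in 4 of 6 LKO livers and above the WT mean in all 6. The difference on the log2 scale was 0.22 (SE 0.076, 95% interval 0.058 to 0.38), with an unadjusted p of 0.0114 and an adjusted p of 0.255 (edgeR). *Plin3* was among the least variable members.
*Plin5* (chromosome 17, 56111601 to 56117596, minus strand) ranged from 47.4 to 117 CPM with a median of 73.5 in WT, and from 69.1 to 104 CPM with a median of 80.8 in LKO livers. The whole LKO range lay inside the WT range, and the log2 fold change was 0.14 (SE 0.17, adjusted p = 0.810, edgeR).
*Cideb* (chromosome 14, 55754050 to 55758458, minus strand), a CIDE family gene that acts in droplet growth and in the lipidation of very-low-density lipoprotein, ranged from 28.7 to 40.0 CPM with a median of 32.6 in WT and from 28.0 to 34.6 CPM with a median of 30.9 in LKO livers. The LKO livers lay within or just under the WT range, at a log2 fold change of −0.088 (SE 0.088, adjusted p = 0.751, edgeR). It shares 1136 exonic nt with *Nop9* on the opposite strand, which had 259 to 461 reads, and the strand setting of the counting is not given in the sources used here, so the *Cideb* count is uncertain.

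*G0s2* (chromosome 1, 193272161 to 193273217, minus strand), the inhibitor of ATGL, was counted at 103, 65.9, 108, 62.4, 43.7 and 87.5 CPM in WT and at 59.3, 55.8, 66.5, 85.8, 176 and 41.2 CPM in LKO replicates 1 to 6. LKO 5 was above all other livers and LKO 6 below all others. On the log2 scale the genotypes differed by 0.046 (SE 0.31, 95% interval −0.61 to 0.71, adjusted p = 0.975, edgeR). Without LKO 5 it turned to −0.34 (adjusted p = 0.650, edgeR).
*Abhd5* (chromosome 9, 122351608 to 122381524, plus strand), the co-activator, ranged from 25.2 to 41.3 CPM with a median of 33.5 in WT and from 30.2 to 52.3 CPM with a median of 37.9 in LKO livers. Higher values were seen in 3 LKO livers than in any WT liver, at a log2 fold change of 0.23 (SE 0.16, adjusted p = 0.601, edgeR). It shares 950 exonic nt with an antisense transcript that had 0 to 2 reads.
*Pnpla2* (chromosome 7, 141455198 to 141460743, plus strand), the gene of ATGL itself, was counted at 107.5, 121, 119, 109, 105 and 129.6 CPM in WT and at 136, 115, 134, 129.98, 159 and 148 CPM in LKO replicates 1 to 6. It was above the WT maximum in 5 of 6 LKO livers, and LKO 2 lay inside the WT range. The log2 fold change was 0.25, a 1.19-fold difference (SE 0.080, 95% interval 0.080 to 0.42), with an unadjusted p of 0.00709 and an adjusted p of 0.218 (edgeR). Over all alternatives its adjusted p ran from 0.109 to 0.390.
*Lipe* (chromosome 7, 25379527 to 25398710, minus strand), the gene of hormone-sensitive lipase, which acts mainly on diglycerides and cholesteryl esters, ranged from 14.2 to 25.0 CPM with a median of 18.6 in WT and from 15.1 to 25.3 CPM with a median of 19.0 in LKO livers. The groups overlapped almost wholly, at a log2 fold change of 0.051 (SE 0.16, 95% interval −0.29 to 0.39, adjusted p = 0.941, edgeR). It shares 918 exonic nt with an antisense gene that had 8 to 32 reads.
*Hsd17b13* (chromosome 5, 103955440 to 103977410, minus strand), an enzyme gene of hepatocyte droplets, ranged from 290.2 to 359 CPM with a median of 338 in WT and from 287 to 352 CPM with a median of 308 in LKO livers. Its log2 fold change was −0.090 (SE 0.067, 95% interval −0.23 to 0.053, adjusted p = 0.648, edgeR), and it was the least variable member between livers of 1 genotype.

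*Pnpla3* encodes a patatin-like protein of the droplet surface, close kin of ATGL, whose gene is known to respond to feeding. It lies on chromosome 15 of GRCm38 from 84167837 to 84187236 on the plus strand, in 8 exons in its longest transcript. It was counted at 0.898, 1.82, 2.67, 0.808, 0.471 and 0.386 CPM in WT and at 7.91, 7.31, 3.41, 4.10, 2.71 and 4.16 CPM in LKO replicates 1 to 6. These values stand for 6 to 42 reads per WT and 59 to 170 reads per LKO library. All 6 LKO livers were above all 6 WT livers, with WT 3 at 2.67 CPM just below LKO 5 at 2.71 CPM. The log2 fold change was 2.06 (SE 0.41, 95% interval 1.19 to 2.93, adjusted p = 0.0387, edgeR), a 4.17-fold rise with an interval of 2.28 to 7.63. The adjusted p lay close to the threshold: with 1 liver left out it stayed under 0.05 in 3 of 12 fits (without WT 2, WT 3 or LKO 5) and ran from 0.00675 to 0.105, while the log2 fold change stayed between 1.87 and 2.48.

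The genes beside *Pnpla3* were then examined, a step chosen after the values were seen. Within 250 kb 4 other genes were tested, and 2 of them, *Pnpla5* and *Parvb*, had an adjusted p under 0.05 (edgeR), both higher in LKO livers, against 0.428% of all genes tested. *Pnpla5*, a patatin-like lipase gene of the same family on the opposite strand (84112356 to 84123175), has its start 44.7 kb from that of *Pnpla3*. It was counted at 0.207, 1.53, 1.59, 0.606, 0.209 and 0.257 CPM in WT and at 4.98, 4.29, 3.58, 2.79, 1.59 and 3.57 CPM in LKO replicates 1 to 6, from 3 to 26 reads in WT and 37 to 107 reads in LKO libraries. The groups did not overlap, though WT 3 and LKO 5 nearly met, as they did for *Pnpla3*. Its log2 fold change was 2.22 (SE 0.44, 95% interval 1.27 to 3.17, adjusted p = 0.0405, edgeR), and with 1 liver left out the adjusted p ran from 0.0139 to 0.106, under 0.05 in the same 3 fits as for *Pnpla3*.
*Parvb* (84232043 to 84315688, plus strand), which encodes beta-parvin of focal adhesions, was counted at 2.63, 2.71, 3.24, 2.49, 1.83 and 2.77 CPM in WT and at 6.74, 3.95, 4.10, 4.67, 4.82 and 3.73 CPM in LKO replicates 1 to 6. Again all 6 LKO livers were above all 6 WT livers. The log2 fold change was 0.85 (SE 0.17, 95% interval 0.49 to 1.21, adjusted p = 0.0396, edgeR). With the replicate number as a block the adjusted p was 0.0701, and with 1 liver left out it ran from 0.0253 to 0.101, under 0.05 without WT 3, LKO 2 or LKO 6.
*Samm50* (84192241 to 84217267, plus strand) lies between *Pnpla3* and *Parvb* and encodes the core of the machinery that folds outer-membrane proteins of mitochondria. It was counted at 88.3 ± 11.2 CPM in WT and at 112 ± 5.76 CPM in LKO livers (SD, n = 6 each), with 5 of 6 LKO livers above the WT maximum. Its log2 fold change was 0.34 (SE 0.080, unadjusted p = 0.000733, adjusted p = 0.0828, edgeR). It passed with the replicate number as a block (adjusted p = 0.0499, edgeR), with DESeq2 (adjusted p = 0.00843) and without WT 3 (adjusted p = 0.0217, edgeR). *Parvg*, further along, had 2 to 25 reads per library and a log2 fold change of 0.67 (SE 0.44, adjusted p = 0.587, edgeR). *Sult4a1*, beyond *Pnpla5*, had too few reads to test, at 0 to 2 in WT and 1 to 11 in LKO libraries.
Widening the window to 5000 kb on each side brought 150 other tested genes into view, and *Pnpla5* and *Parvb* were still the 2 that passed. The median log2 fold change of those 150 genes was −0.026. Within 250 kb of each of the other 9 members, 5 to 31 other genes were tested and 0 passed in edgeR's test, with 0 to 9 at an unadjusted p under 0.05. The *Pnpla3* locus lies 52.6 Mb from *Marchf6*, which is on the same chromosome.

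**Figure D3:**
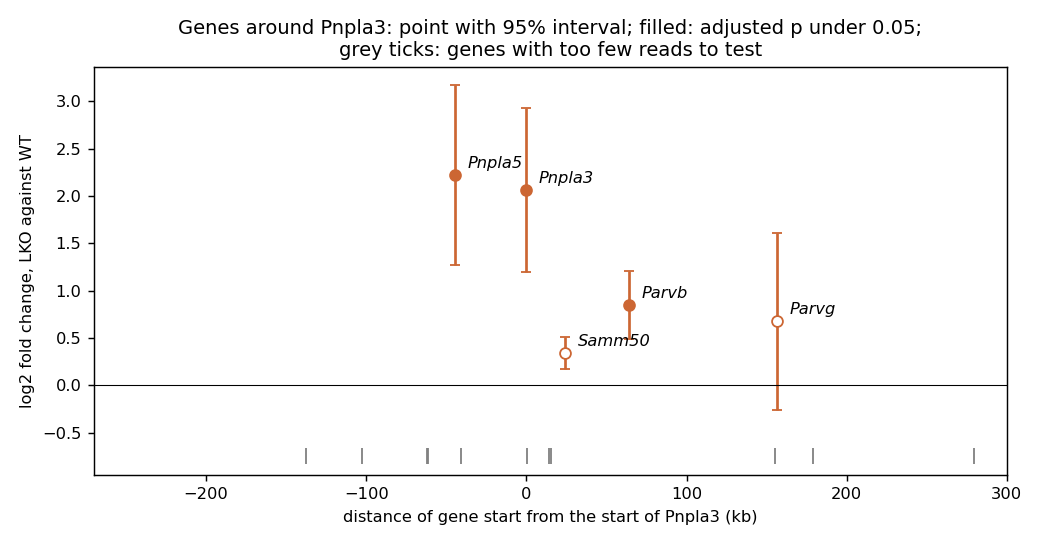
Log2 fold change between LKO and WT livers (point, with 95% interval) of the genes tested near *Pnpla3*, against the distance of each gene's start from the start of *Pnpla3* in kb; filled points passed an adjusted p of 0.05, and grey ticks mark genes with too few reads to test. *Pnpla5* and *Pnpla3* lie above 2 on the log2 scale, *Parvb* at 0.85 and *Samm50* at 0.34.

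The promoter windows of *Pnpla3* and *Pnpla5* are shown because these neighbours rose together, and that of *Plin2* because it has the highest level per length of the members. Each is the RefSeq sequence on GRCm38.p6 from 250 bases before to 50 bases after an annotated start, 5′ to 3′ on the gene's strand. Capitals mark matches on either strand to 6 motifs: the SREBP site TCACNCCAC, the E-box CACGTG, the nuclear receptor half-site AGGTCA, the CCAAT box (spelled as named), the GC box GGGCGG and the TATA box TATAAA. The windows are chr15:84167566-84167865 (plus strand), chr15:84123126-84123425 (minus strand) and chr4:86670010-86670309 (minus strand).
Pnpla3: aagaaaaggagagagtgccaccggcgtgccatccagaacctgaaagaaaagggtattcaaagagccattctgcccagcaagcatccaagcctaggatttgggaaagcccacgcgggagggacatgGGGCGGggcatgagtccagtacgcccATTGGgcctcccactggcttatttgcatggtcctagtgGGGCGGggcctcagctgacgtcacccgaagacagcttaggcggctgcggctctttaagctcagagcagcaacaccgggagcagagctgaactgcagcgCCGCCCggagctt
Pnpla5: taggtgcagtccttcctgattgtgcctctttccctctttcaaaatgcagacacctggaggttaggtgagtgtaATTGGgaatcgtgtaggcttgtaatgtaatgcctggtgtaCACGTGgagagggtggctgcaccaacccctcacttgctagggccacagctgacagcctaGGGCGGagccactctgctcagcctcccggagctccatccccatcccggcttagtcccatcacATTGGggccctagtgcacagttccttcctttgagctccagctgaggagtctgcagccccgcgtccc
Plin2: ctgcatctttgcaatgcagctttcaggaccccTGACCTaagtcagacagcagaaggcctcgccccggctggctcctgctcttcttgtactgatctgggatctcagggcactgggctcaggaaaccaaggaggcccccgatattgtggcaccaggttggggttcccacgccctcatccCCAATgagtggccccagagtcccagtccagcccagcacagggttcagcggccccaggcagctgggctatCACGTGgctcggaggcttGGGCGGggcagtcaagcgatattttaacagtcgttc
In *Pnpla3* the capitals are 3 GC boxes and 1 CCAAT match on the opposite strand. *Pnpla5* holds 2 CCAAT matches on the opposite strand, 1 E-box and 1 GC box, so a CCAAT match and a GC box are common to the pair. *Plin2* holds a half-site, a CCAAT match, an E-box at its start and a GC box.
All 10 members matched RefSeq windows by symbol, 12 windows in all because *Plin5* and *Lipe* have 2 starts each. The 2 *Plin5* windows overlap and 1 GC box lies in both, so the 12 windows are not all separate. By gene, 9 of the 10 members held a GC box. A GC box was found in 10 of these 12 windows, beside 35.7% of all 32851 windows, and CCAAT in 4 of 12 (in *Plin2*, *Plin3*, *Plin5* and *Pnpla3*), beside 37.4%. The half-site was found in 5 of 12 windows (in *Plin2*, *Plin5*, *Abhd5* and *Hsd17b13*), beside 16.3%. The E-box was found in 2 of 12 (in *Plin2* and *Lipe*), beside 7.15%, and the TATA box in 1 of 12 (in *Cideb*), beside 13.6%. The SREBP site was found in 0 of 12 windows, beside 1.24% of all windows. No matches overlap in the 3 windows shown, and a match is a description of letters only.

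Balances within the pathway were compared as log2 ratios of counts in each liver, since G0S2 and ABHD5 act on ATGL and since PLIN5 and PLIN2 coat the same droplets. The ratio of *G0s2* to *Pnpla2* averaged −0.62 ± 0.46 in WT and −0.93 ± 0.66 in LKO livers (SD, n = 6 each), a difference of −0.31 (exact permutation test, two-sided p = 0.379, adjusted over 3 ratios 0.937). That of *Abhd5* to *Pnpla2* averaged −1.81 ± 0.36 and −1.82 ± 0.43, a difference of −0.016 (exact permutation test, two-sided p = 0.937, adjusted 0.937). That of *Plin5* to *Plin2* averaged −2.89 ± 0.52 and −3.04 ± 0.53, a difference of −0.15 (exact permutation test, two-sided p = 0.630, adjusted 0.937). None of the 3 balances differed by more than the spread between livers, and the first ran from −1.26 to −0.058 among WT livers alone.

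Between livers of 1 genotype the members spread very unequally. The pooled SD of log2 CPM was 0.86 for *Pnpla3*, 0.62 for *G0s2* and 0.53 for *Plin2*, beside a median of 0.27 over all genes tested. It was 0.10 for *Hsd17b13*, 0.13 for *Plin3*, 0.14 for *Pnpla2* and 0.16 for *Cideb*, and between 0.32 and 0.34 for *Abhd5*, *Lipe* and *Plin5*. *Pnpla3*, the most variable, also had the fewest reads of the members. Coat genes and lipase genes were found among both the steady and the variable members.
Whether members rose and fell together from liver to liver was asked on deviations from the genotype mean over 12 livers. Of 45 pairs, 0 passed an adjusted p of 0.05 by Pearson's r or by Spearman's rho (permutation within genotype), and 4 had an unadjusted p under 0.05 by r. Positive r was found in 25 pairs, with a median of 0.093 and a range from −0.72 to 0.65. The lowest belonged to *Pnpla3* with *Lipe* (r = −0.72, rho = −0.71, permutation p = 0.0145 and 0.0213, adjusted over 45 pairs 0.444 and 0.631), and r was −0.73 without WT 2 and WT 3.
A further 15 pairs were chosen after the values were seen. *Pnpla3* deviated together with *Pnpla5* (r = 0.87, permutation p = 0.00195, adjusted over 15 pairs 0.0146), with r = 0.88 in WT and 0.84 in LKO livers and 0.74 without WT 2 and WT 3. Its rank correlation did not pass after adjustment (rho = 0.73, permutation p = 0.0332, adjusted 0.144). Some genes outside these 15 pairs, named below, had a higher r with *Pnpla3*, up to 0.95. *Pnpla3* with *Samm50* (r = 0.76, rho = 0.66, permutation p = 0.0170 and 0.0481, adjusted 0.0706 and 0.144) and with *Parvb* (r = 0.50, rho = 0.31, permutation p = 0.101 and 0.351, adjusted 0.254 and 0.641) did not pass. None of 8 transcription factor genes known to act on members passed with *Pnpla3*. The largest of these r belonged to *Foxo1*, a factor that insulin shuts out of the nucleus (r = 0.71, rho = 0.58, permutation p = 0.0188 and 0.0842, adjusted 0.0706 and 0.210). *Srebf1*, which encodes the lipogenic factor SREBP1, had r = −0.48 (permutation p = 0.128, adjusted 0.275) and rho = −0.65 (permutation p = 0.0325, adjusted 0.144). Deviations from the genotype mean leave out the difference between genotypes, which is given for *Srebf1* below.
*Plin2* deviated together with *Cidec*, a CIDE gene that fuses droplets and is known to rise in fatty liver (r = 0.88, rho = 0.78, permutation p = 0.00162 and 0.00473, adjusted over 15 pairs 0.0146 and 0.0709). Without LKO 1 and WT 2, the livers farthest from the median of *Plin2*, r was 0.55, so the size of the relation rests in part on these livers. With *Plin4*, *Ppara* and *Pparg* the r of *Plin2* was 0.54, 0.13 and −0.095, and none of these passed (permutation p = 0.0843, 0.693 and 0.777, adjusted 0.253, 0.968 and 0.968). The rho of these pairs was 0.64, 0.29 and 0.070 (permutation p = 0.0390, 0.384 and 0.839, adjusted 0.144, 0.641 and 0.899).

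**Figure D4:**
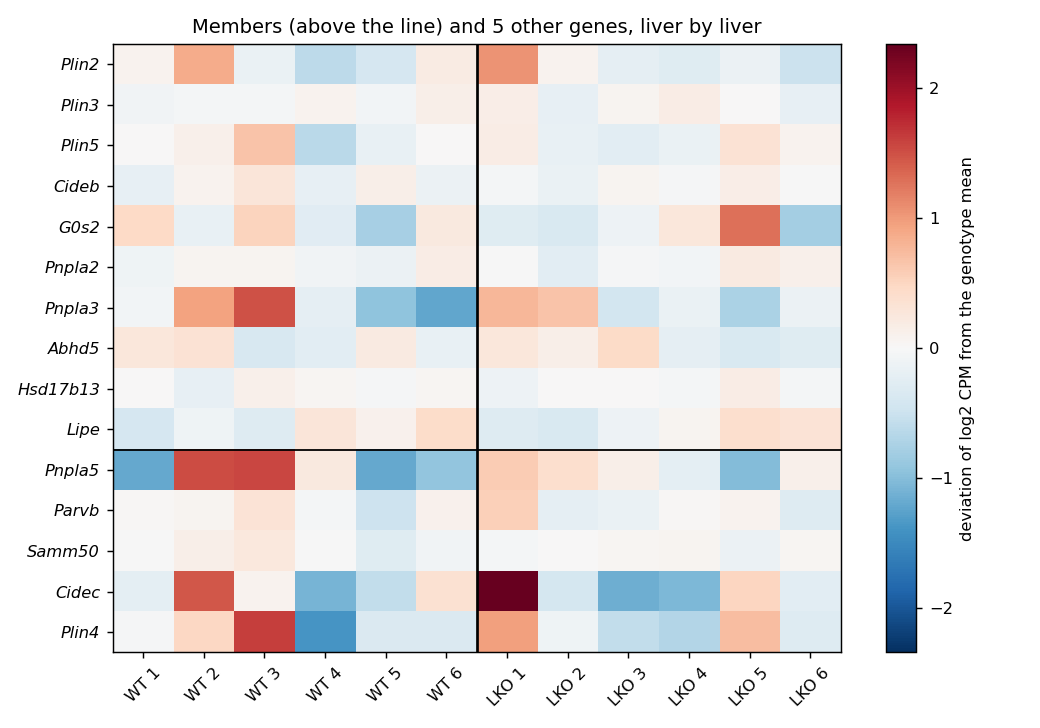
Deviation of log2 CPM from the genotype mean in each of 12 livers (columns, 6 WT then 6 LKO) for the 10 members and, under the line, 5 other genes; red is above and blue below the mean. *Pnpla3* and *Pnpla5* are both high in WT 2, WT 3, LKO 1 and LKO 2 and both low in WT 5, WT 6 and LKO 5, and *Plin2* and *Cidec* are both highest in WT 2 and LKO 1.

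By likeness of log2 deviations, the 3 genes closest to *Pnpla3* among 12775 compared over 12 livers were *Pfkfb3*, a gene of a glycolytic regulator enzyme (r = 0.95), *Plpp5*, a lipid phosphatase gene (r = 0.93), and *Rtcb*, an RNA ligase gene (r = 0.91). The 3 closest to *Plin2* were *Myl12a*, a myosin light chain gene (r = 0.96), *Slc16a1*, a monocarboxylate transporter gene (r = 0.95), and *Ldha-ps2*, a processed pseudogene (r = 0.95). These are descriptions picked as the largest of many values, and all values of a liver come from the same library. None of the 6 differed between genotypes after adjustment (edgeR adjusted p from 0.474 to 0.997), whereas *Pnpla3* did.

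The remaining genes of droplet biology were taken by list. Of 4 other perilipin and CIDE genes, 2 were tested and 0 passed in edgeR's test, and neither had an unadjusted p under 0.05. *Cidec* had a log2 fold change of 1.01 (SE 0.58, adjusted p = 0.531, edgeR), with 2.76 to 16.2 CPM in WT and 4.16 to 47.1 CPM in LKO livers. The highest of these, 47.1 CPM, was LKO 1, the liver that was also highest in *Plin2*, and without it the log2 fold change of *Cidec* was 0.082. Without WT 2 it was 1.46 and with the replicate number as a block 0.65 (adjusted p = 0.356 and 0.624, edgeR). *Plin4* had a log2 fold change of 0.14 (SE 0.42, adjusted p = 0.939, edgeR). The fat cell markers *Adipoq*, *Lep*, *Retn* and *Plin1* were at or near 0 in every liver, at no more than 0.069 CPM, while the whole list of 7 fat cell markers summed to 13.7 to 67.2 CPM in WT and 21.6 to 82.4 CPM in LKO livers. Most of this sum came from *Plin4* and *Fabp4*. *Plin4* was at 7.27 to 58.7 CPM in WT and 14.5 to 45.4 CPM in LKO livers. *Fabp4* was at 4.31 to 16.1 CPM in WT and 6.95 to 36.4 CPM in LKO livers.
Of 9 droplet formation genes, 0 passed and 1 had an unadjusted p under 0.05 (edgeR): *Ldaf1*, whose product helps seipin to start droplets, with a log2 fold change of 0.86 (SE 0.23, adjusted p = 0.124), at 1.42 ± 0.377 CPM in WT and 2.58 ± 0.798 CPM in LKO livers (SD, n = 6 each). The smallest of this list was *Dgat2*, which makes triglyceride, at −0.20 (SE 0.12, adjusted p = 0.535, edgeR). The counts ran 5 higher and 4 lower.
Of 8 other droplet-associated enzymes, 4 were higher and 4 lower, and 0 passed (edgeR, 2 at an unadjusted p under 0.05). *Lpcat2*, a phospholipid remodelling gene, was highest at 0.37 (SE 0.36, adjusted p = 0.746, edgeR) and *Nsdhl*, a sterol synthesis gene, lowest at −0.25 (SE 0.11, adjusted p = 0.386, edgeR). *Hsd17b11*, the nearest relative of *Hsd17b13*, had a log2 fold change of 0.29 (SE 0.084, unadjusted p = 0.00372, adjusted p = 0.168, edgeR) and was outside the rule for named genes.
Of 12 other intracellular lipases, 11 were tested and 1 passed, *Pnpla5* (edgeR, 3 at an unadjusted p under 0.05, of which 2 were higher and 1 lower). The smallest log2 fold change was that of the carboxylesterase gene *Ces1g* (−0.32, SE 0.13, adjusted p = 0.336, edgeR), which has near-identical relatives among the *Ces1* genes and is uncertain for that reason. *Pnpla6*, *Pnpla7* and *Pnpla8*, the other patatin-like genes tested, had log2 fold changes of −0.0099, 0.12 and −0.050; none of these passed (edgeR). *Pnpla1* had 0 reads.
Of 9 genes for ATGL inhibitors and the degradation of droplet proteins, *Marchf6* among them, 1 was higher and 8 lower and 0 passed (edgeR, 0 at an unadjusted p under 0.05). They lay between *Hilpda*, an inhibitor of ATGL, at 0.15 (SE 0.30, adjusted p = 0.897, edgeR) and the chaperone gene *Hspa8* at −0.15 (SE 0.11, adjusted p = 0.638, edgeR).
Of the 8 transcription factor genes, 5 were higher and 3 lower and 0 passed (edgeR, 2 at an unadjusted p under 0.05). *Pparg*, which drives fat storage genes, was highest at 0.70 (SE 0.20, adjusted p = 0.164, edgeR) and *Foxo1* lowest at −0.22 (SE 0.17, adjusted p = 0.668, edgeR). The unadjusted p was under 0.05 for *Pparg* (0.00342) and for *Ppara* (0.0222), which lay at −0.21 (SE 0.084, adjusted p = 0.324, edgeR). Of 9 genes that respond to fasting, 3 were higher and 6 lower and 0 passed (edgeR, 1 at an unadjusted p under 0.05). *Pdk4*, which spares glucose, was highest at 1.06 (SE 0.38, adjusted p = 0.279, edgeR) and *G6pc*, the last enzyme of glucose output, lowest at −0.41 (SE 0.21, adjusted p = 0.483, edgeR). The *Pdk4* value of LKO 1, 25.0 CPM, stood far above the other LKO livers, at 4.49 to 9.25 CPM. WT livers held 2.25 to 6.15 CPM of *Pdk4*.

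**Figure D5:**
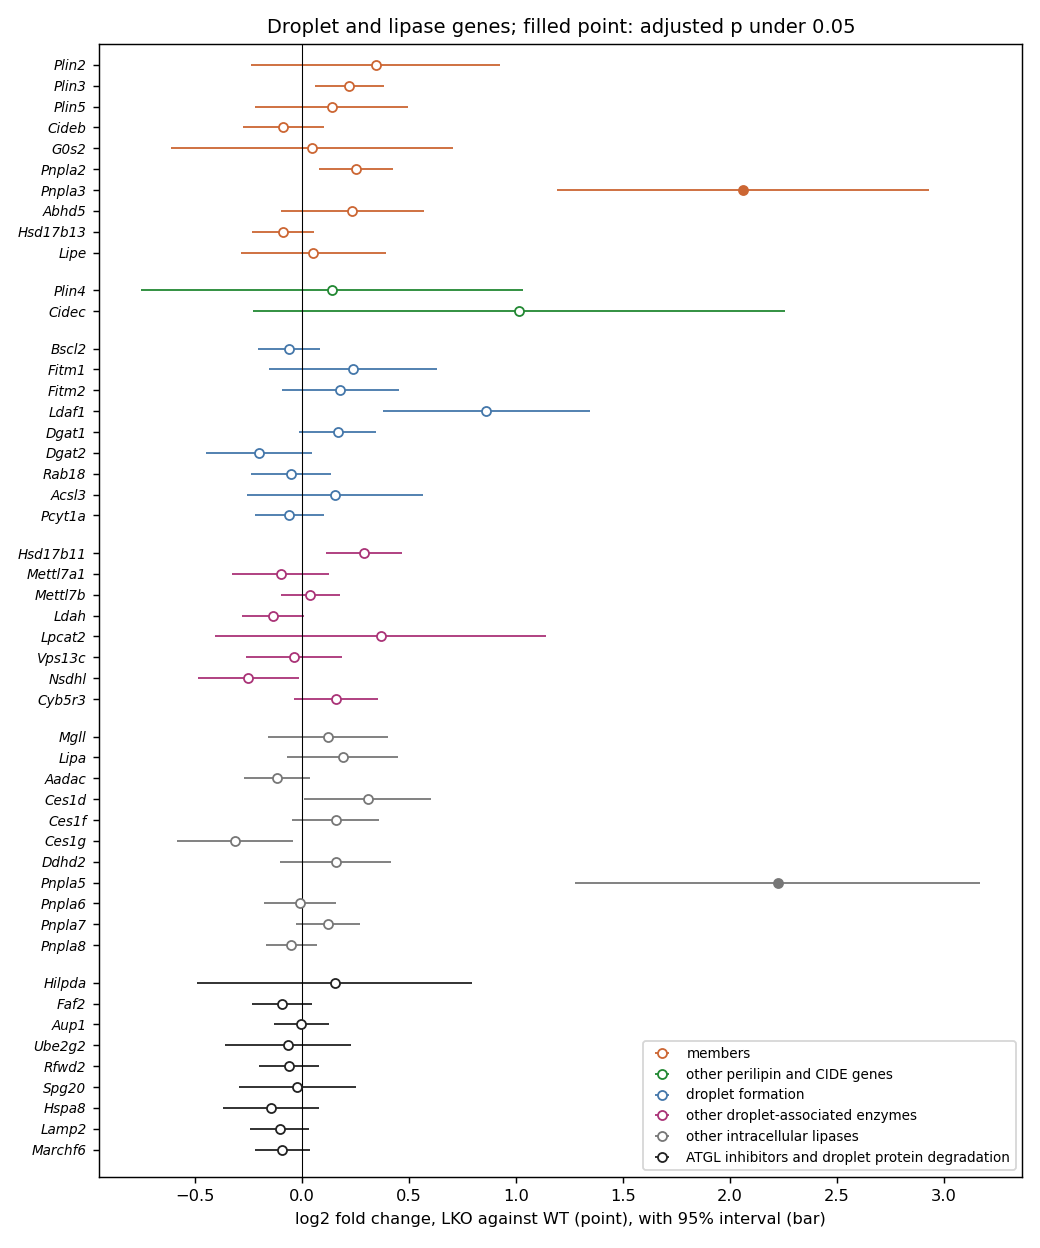
Log2 fold change between LKO and WT livers (point, with 95% interval) of the members and of 5 further lists of droplet genes, n = 6 livers per group; filled points passed an adjusted p of 0.05. *Pnpla3* among the members and *Pnpla5* among the other lipases are the filled points, and both lie above 2.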

How the data were processed

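Liver mRNA of 6 WT and 6 LKO mice was sequenced, and the labels of the 12 libraries give each mouse's genotype. Per the study's methods and the submitters' processing notes, the authors made libraries with a KAPA mRNA HyperPrep kit, trimmed reads with Trimmomatic 0.36, aligned them to GRCm38.p6 with HISAT2 2.1.0 and used HTSeq 0.6.1 for counting. What the authors deposited are counts per Ensembl gene, neither normalized nor filtered. The strand setting and overlap mode are not given in the sources used here, so overlapping genes are uncertain. Names, positions and lengths came from GENCODE M21, which held 54165 of 54232 identifiers.

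The 17509 genes that had over 2 reads in 6 or more livers were scaled by TMM and tested for genotype alone with edgeR 4.0.16 (quasi-likelihood, R 4.3.3), and p-values were adjusted by Benjamini and Hochberg over these genes. This passed 75 genes, 48 higher and 27 lower. Log2 CPM used a prior count of 0.5, ratios a pseudocount of 0.5. Ratios were compared over all 924 assignments of livers, and correlations over 100000 permutations within genotype (SciPy 1.17.1). Total counts per liver limit precision by counting error only. The genotype fits by edgeR, limma voom and DESeq2 were tested on simulated counts.

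Members and lists were chosen with earlier results of these data known. Genes were named by rule: the members, listed genes past the test or with the largest or smallest fold change of their list, *Marchf6*, and the 3 genes most like *Pnpla3* and *Plin2*. *Samm50*, *Parvb*, *Parvg*, *Sult4a1*, *Hsd17b11*, *Srebf1*, *Ppara*, *Plin4*, *Pnpla6*, *Pnpla7* and *Pnpla8* were chosen after their values were seen. Alternatives were other scalings, filters and tests (limma 3.58.1 voom, the test of the study, and DESeq2 1.42.0), a replicate block and each liver left out. Spearman's rho and the fits for the neighbours of *Pnpla3* were added after seeing the data. The replicate numbers belong to different mice.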

Additional observations from a re-analysis of the deposited data

Results flagged for a closer look

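In LKO livers, the *Plin2* value of LKO 1 (1410 CPM) stood apart from the other 5 livers of its group. Its gap to the next liver was 0.744 of the group's whole range, above the critical value of Dixon's test for 6 samples. The *G0s2* value of LKO 5 (176 CPM) stood apart from its group in the same way, with a gap of 0.669 of the range. The test was made on CPM at both ends of 28 groups of 6 livers. If values spread normally, chance alone gives about 1.4 such groups. On log2 CPM, the scale used for spread above, both gaps would be a smaller share of the range. The same libraries were not highest in both genes: LKO 1 held 59.3 CPM of *G0s2*, and LKO 5 held 620 CPM of *Plin2*. LKO 1 was also the highest liver in *Cidec* (47.1 CPM), *Fabp4* (36.4 CPM) and *Pdk4* (25.0 CPM).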

How the results depend on the processing

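The number of genes passing was 75, and it was 114 without a filter on low counts, 350 with DESeq2, and from 38 to 132 with 1 liver left out (lowest without WT 5, highest without WT 3). *Pnpla3* passed under 8 alternatives that kept all livers and tested it. With at least 10 reads required in every liver it and *Pnpla5* were not tested, 0 members passed, and 1 gene near *Pnpla3* (*Parvb*) did. With 1 liver left out, 0 to 1 members and 0 to 4 genes within 250 kb of *Pnpla3*, itself included, passed, beside 1 and 3 with all livers. The log2 fold changes of *Pnpla3*, *Pnpla5* and *Parvb* were above 0 in every fit that tested them. The ratio of *Abhd5* to *Pnpla2* changed sign with 1 liver left out, with differences from −0.11 to 0.098, as did that of *Plin5* to *Plin2*, from −0.30 to 0.024. That of *G0s2* to *Pnpla2* kept its sign, from −0.52 without LKO 5 to −0.12 without LKO 6. The log2 fold change of *G0s2* was −0.056 with limma voom, −0.095 with the replicate block and −0.34 to 0.18 with 1 liver left out (under 0 without WT 4, WT 5 or LKO 5). That of *Lipe* was −0.035 to 0.15 with 1 liver left out. The cause of these changes was not tested. The deviations of same-numbered livers correlated at over 0.1 in 4 of 6 pairs and 3 of 6 LKO livers correlated best with their own number. The lowest pair was at −0.065, and the sources state no pairing, so a pairing was not established. With the replicate block 97 genes passed, 60 of them among the 75, *Pnpla3* had a log2 fold change of 2.13 (adjusted p = 0.0248, edgeR), and for the 3 ratios sign flips within pairs gave differences of −0.31, −0.02 and −0.15 (exact permutation p = 0.563, 0.875 and 0.656).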
